A study of Mus musculus with 16 samples.

Results

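The 44 collagen genes of the mouse were followed in NIH3T3 cells, a fibroblast line. A gene was taken as a collagen gene when its symbol named a collagen type and an alpha chain, from Col1a1 to Col28a1, which selected 44 of the 23356 genes of each table. They were compared as 3 classes. The first held the 6 genes of types 1, 3 and 5, which form fibrils, the second the 6 genes of type 4, which forms the network of basement membranes, and the third the 32 genes of all other types. The cells stably expressed DD-sfGFP, a destabilizing domain fused to superfolder GFP, in control and treated samples alike, and the study's methods describe sorting its DD-GFP cells for high expression. RNA was sequenced from untreated control cells at 0 min and from cells exposed to bortezomib, a proteasome inhibitor, for 45, 135 or 405 min, with 4 replicate libraries in each of the 4 groups. No vehicle-treated cells at the later times were analysed here, so bortezomib and elapsed time cannot be told apart. Nothing in the labels says that the replicates came from separate cultures, so p-values measure only the spread between these libraries.

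Collagens are secreted proteins in which 3 alpha chains wind into a triple helix. Type I, the main collagen of skin, bone and tendon, is built from chains of Col1a1 and Col1a2, and fibroblasts co-assemble it with types III and V. In the endoplasmic reticulum, prolyl and lysyl hydroxylases modify the chains and the collagen chaperone HSP47, encoded by Serpinh1, binds the folded helix before export. Outside the cell, procollagen peptidases trim the ends and lysyl oxidases cross-link the fibrils. Type IV chains are encoded by 6 genes that lie in head-to-head pairs, of which Col4a1 and Col4a2 are the widely expressed pair.

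The libraries differed in composition within and between groups. The share of fragments on 97 ribosomal protein genes exceeded 4% in 7 libraries, namely replicates 1 and 2 of both 45 and 135 min plus 405 min replicates 1, 3 and 4. It was 4.25% in 405 min replicate 3, just inside the threshold, and 1.21% in control replicate 2, just outside it. All 4 controls were among the other 9 libraries. The 7 libraries held 1385229 to 19930375 fragments and the 9 held 570323 to 1469951. The summed level of 10 fibroblast marker genes, 3 of them collagens, in CPM (fragments of the gene divided by all fragments of the library, times 1000000) was 3510 to 20600 in the 7 and 357 to 1730 CPM in the 9. Marker sums for other cell types were 0.381 to 121 against 146 to 209 CPM for 6 epithelial genes, 0.544 to 95.3 against 149 to 372 CPM for 4 endothelial genes, 0 to 69.3 against 54.5 to 160 CPM for 4 leukocyte genes and 0 to 78 against 131 to 268 CPM for 4 cartilage genes. No marker of these 4 lists was at 0 in all 9 libraries. The share of fragments on 1438 olfactory and vomeronasal receptor genes was 4.14 to 5.12% in the 9 and 0.00531 to 2.61% in the 7. The 2.61% was that of 405 min replicate 3. The part of these differences in the collagen values was not tested. In what follows, the 7 and the 9 libraries are described separately, and they are not groups of the study.

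In the 7 libraries the collagen genes ran from among the most abundant transcripts of the cell to undetected ones. Levels between genes were compared as fragments per kilobase of the longest coding transcript, scaled as CPM are. On this scale Col1a2 had the highest mean level, 297 ± 180 (SD, n = 7 libraries), and Col1a1 followed with 243 ± 106. Next were Col3a1 with 87.8 ± 60.6, and Col5a2 with 85.1 ± 44.2. Within each of these pairs the means differed by less than either SD. Col6a3 (36.6 ± 20), Col6a1 (30.6 ± 29.1), Col8a1 (26.1 ± 12.7), Col4a1 (19.2 ± 11.5), Col6a2 (18.6 ± 17.2) and Col16a1 (11.6 ± 5.75) completed the 10 highest, and neighbours among these 6 differed by less than the larger of their SDs. Among the 20251 genes with a transcript length, the median percentile of the level in the 7 libraries was 98.9 for Col1a2, 98.7 for Col1a1, 96.3 for Col5a2, 96 for Col3a1, 90.6 for Col6a3 and 84.6 for Col4a1. In the 9 libraries the median percentile of Col1a1 was 46.3 and that of Col1a2 51.7.

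**Figure D1:**
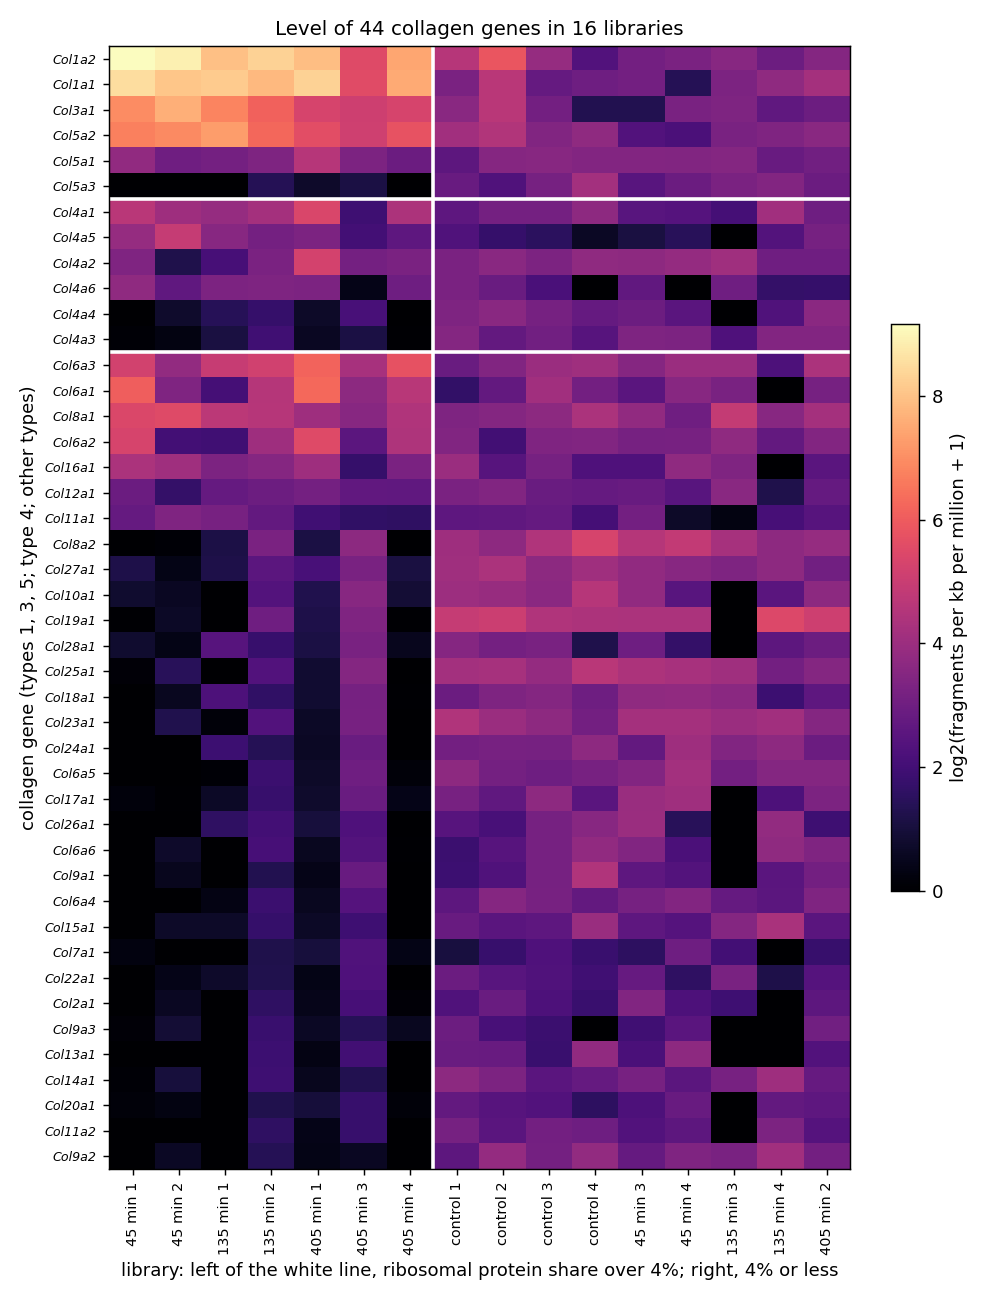
Level of each of the 44 collagen genes (rows, grouped by class) in each of the 16 libraries (columns), as log2(level + 1) with the level in CPM per kilobase, with the 7 libraries whose ribosomal protein share exceeded 4% to the left of the white line. Col1a1, Col1a2, Col3a1 and Col5a2 are the brightest rows on the left, while the rows on the right lie close together.

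A split between abundant and scarce collagens was clearest in 45 min replicate 1 (18381116 fragments) and 405 min replicate 4 (19930375 fragments). In both, the same 16 collagen genes had 300 or more fragments. These were Col1a1, Col1a2, Col3a1, Col5a1 and Col5a2, then Col4a1, Col4a2, Col4a5 and Col4a6, and of the other types Col6a1, Col6a2, Col6a3, Col8a1, Col11a1, Col12a1 and Col16a1. The next gene in either library was Col27a1, with 178 fragments at most. In 45 min replicate 1, 13 collagen genes were at 0, and in 405 min replicate 4, 14 were. A count of 0 there allows a level of up to 0.163 and 0.151 CPM (3 counts per library, counting error only). The 9 collagens at 0 in both were Col5a3, Col9a1, Col11a2, Col13a1, Col15a1, Col22a1, Col23a1, Col24a1 and Col26a1. Col9a1 and Col11a2 encode chains of cartilage fibrils. Col2a1, the main cartilage collagen, was at 0 in 45 min replicate 1 and at 0.452 CPM in 405 min replicate 4. In 405 min replicate 1 (15213857 fragments), the next in depth, no collagen was at 0 and 17 had 300 or more fragments. The 9 genes at 0 in both other libraries had 13 to 63 fragments there.

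The 9 libraries held only 570323 to 1469951 fragments, so a count of 300 there stands for a higher level and cannot mark the same split. The highest count of any collagen in them was 264. Their levels lay closer together, and the highest level per kilobase was 2.68 to 7.41 times the median collagen level of the same library. In the 7 libraries this ratio was 8.73 to 5040, with the lowest value in 405 min replicate 3.

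The fibril-forming collagens of types 1, 3 and 5 included the 4 genes with the highest levels. Col1a1 lies at chr11:94797538-94814356 on the plus strand of mouse assembly NCBIM37 (mm9), and Col1a2 at chr6:4454814-4491543, also on the plus strand. Col3a1, at chr1:45368383-45406551 (plus), and Col5a2, at chr1:45431166-45560127 (minus), are neighbours whose ends face each other across 24614 bases. The bases before the RefSeq start of Col1a2 and Col3a1 are shown because these genes were among the most abundant collagens and, among the 7 libraries, every 405 min library lay below every 45 min library for both. Capitals mark matches on either strand to CCAAT, to the TATA motif TATAAA, or to the GC motif GGGCGG in the 250 bases before the start (RefSeq, assembly GRCm38.p6). The Col1a2 bases are chr6:4505368-4505617 and the Col3a1 bases chr1:45311288-45311537, both on the plus strand.
Col1a2: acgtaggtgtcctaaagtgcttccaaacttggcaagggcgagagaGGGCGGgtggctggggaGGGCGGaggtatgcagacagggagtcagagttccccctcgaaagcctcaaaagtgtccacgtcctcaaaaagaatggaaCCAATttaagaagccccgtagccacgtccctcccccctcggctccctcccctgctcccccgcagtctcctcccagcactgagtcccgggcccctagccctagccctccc
Col3a1: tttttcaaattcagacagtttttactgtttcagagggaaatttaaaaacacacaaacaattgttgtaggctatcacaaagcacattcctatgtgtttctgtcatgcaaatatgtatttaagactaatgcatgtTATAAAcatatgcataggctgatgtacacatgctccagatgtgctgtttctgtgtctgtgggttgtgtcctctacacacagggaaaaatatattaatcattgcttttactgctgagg
The Col1a2 stretch was 62% G and C, with 1 CCAAT match that begins 109 bases before the start and 2 GGGCGG matches. The Col3a1 stretch was 35.2% G and C, with 1 TATAAA match that begins 117 bases before the start. Of 32851 promoter windows of the same length in the RefSeq table, 33.8% held CCAAT, 12.4% TATAAA and 32.7% GGGCGG. Of the 35 collagen genes with a window, 13, 5 and 21 held them in any of their windows. These counts are per gene and the shares per window, so they cannot be set against each other.

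Col1a1, which encodes the alpha 1 chain of type I collagen, was measured at 51.9, 145, 34.8 and 41.6 CPM in control replicates 1 to 4. It was at 2210, 1600, 44.2 and 9.61 CPM at 45 min, at 1690, 1340, 52.6 and 73.8 CPM at 135 min, and at 1890, 103, 273 and 1090 CPM at 405 min. The 7 libraries over 4% ribosomal protein share were all above the other 9 for this gene. Col1a2, the alpha 2 chain, was at 125, 306, 74.1 and 22 CPM in control, at 3060, 2560, 40.1 and 46.5 CPM at 45 min, at 1320, 1700, 57.9 and 36.3 CPM at 135 min, and at 1290, 54.6, 245 and 929 CPM at 405 min. Here control replicate 2, the control with the highest ribosomal protein share, lay above 405 min replicate 3, and the other 6 libraries over 4% were above all 9.

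Col3a1, whose 3 identical chains form type III collagen of extensible tissues, was at 62.1, 136, 42.6 and 8.09 CPM in control, at 688, 1100, 8.16 and 46.5 CPM at 45 min, at 626, 384, 50.8 and 29.5 CPM at 135 min, and at 219, 37.7, 186 and 216 CPM at 405 min. Col5a2 was at 111, 144, 64 and 82.1 CPM in control, at 712, 803, 27.2 and 24 CPM at 45 min, at 1030, 500, 56.1 and 62.5 CPM at 135 min, and at 323, 74.1, 224 and 359 CPM at 405 min. For both genes the 7 libraries lay above the 9. Col5a2 and Col5a1 encode chains of type V collagen, a minor fibril component that helps to set fibril diameter. Col5a2 was above Col5a1 in each of the 7 libraries, while in the 9 the order varied. Col5a1 was at 42.9, 88.2, 89.8 and 84.4 CPM in control, at 108, 59.9, 83.7 and 81.7 CPM at 45 min, at 65.6, 78.1, 85.9 and 52.2 CPM at 135 min, and at 198, 61.1, 75.8 and 54.7 CPM at 405 min. These values overlapped between the 7 and the 9 libraries. Col5a3, the remaining type V gene, was at 0 in 4 of the 7 libraries and at most 9.92 CPM in the others, against 24.4 to 105 CPM in control.

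Type IV collagen genes were present at lower levels. Col4a1 (chr8:11198423-11312826, minus strand, NCBIM37) and Col4a2 (chr8:11312805-11449287, plus strand) start so close together that their annotated transcripts overlap by 22 bases, and whether the counting used strand is not given in the sources used here. Col4a1 was at 33.9, 51.1, 51.6 and 78.6 CPM in control, at 163, 104, 30.6 and 28.8 CPM at 45 min, at 91.6, 115, 21 and 110 CPM at 135 min, and at 267, 45.5, 18 and 131 CPM at 405 min. In 6 of the 7 libraries it was between 91.6 and 267 CPM, and 405 min replicate 3 was the lowest of all 16. Col4a2 was at 56.5, 72, 58.3 and 79.8 CPM in control, at 60.4, 8.68, 78.2 and 86.5 CPM at 45 min, at 20.9, 56.3, 105 and 46.6 CPM at 135 min, and at 237, 45.5, 50.5 and 56.2 CPM at 405 min. The 405 min replicate 1 value stood apart from all others, and the rest did not separate the 7 libraries from the 9.

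Col4a5 and Col4a6, an X-linked pair of which Col4a5 is the gene most often mutated in Alport syndrome, were both measured in the 7 libraries. Col4a5 was at 89.7, 193, 7.48 and 11.2 CPM at 45 min, at 71, 51.1, 0 and 27.3 CPM at 135 min, at 57.6, 52, 20.2 and 34.4 CPM at 405 min, and at 3.47 to 26 CPM in control. Col4a6 ran from 2.17 CPM in 405 min replicate 3 to 82.3 CPM in 45 min replicate 1 within the 7, and from 0 to 57.6 CPM in control. Col4a3 and Col4a4, the pair of the glomerular basement membrane, were at 0.351 to 24.8 CPM and 0 to 26.7 CPM in the 7 libraries and at 38.2 to 87 CPM and 45.1 to 85.9 CPM in control. For Col4a3 the 7 libraries all lay below the 9.

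Of the other collagens, Col6a3 and Col6a1 of the beaded-filament type VI had the highest mean levels, followed by Col8a1 and Col6a2, while Col6a4, Col6a5 and Col6a6 were at 1.1, 1.5 and 1.24 per kilobase. Col6a3, which encodes the largest chain of this microfibril, was at 55.3, 85.9, 130 and 140 CPM in control, at 312, 113, 91.8 and 130 CPM at 45 min, at 266, 305, 130 and 32.9 CPM at 135 min, and at 624, 172, 161 and 465 CPM at 405 min. The ranges of the 7 and the 9 libraries overlapped. Col6a1 was at 269 and 38.8 CPM in 45 min replicates 1 and 2, at 13 and 93.8 CPM in the 135 min pair, and at 318, 48.4 and 96.6 CPM in the 3 libraries at 405 min. Col6a2 was at 179, 14.2, 13.3, 73.7, 209, 23.1 and 94.2 CPM in the same libraries, so that the libraries that were high for Col6a1 were high for Col6a2 as well. Col8a1, a network-forming collagen of vessel walls and the eye, was at 55.6 to 231 CPM in the 7 and at 36.8 to 147 CPM in the 9. Col16a1, which belongs to the collagens that attach to fibrils, was at 12.3 to 100 CPM in the 7 and at 0 to 76.8 CPM in the 9. The remaining 27 other collagens had mean levels per kilobase from 0.426 for Col9a2 to 5.75 for Col12a1 in the 7 libraries.

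The class shares followed from these levels. Types 1, 3 and 5 held 71.5 ± 14.5% of collagen fragments in the 7 libraries (SD, n = 7) and 16.6 ± 5.83% in the 9 (SD, n = 9), while their transcripts make up 14.2% of collagen transcript length. Type 4 held 6.15 ± 2.01% in the 7 and 12.4 ± 1.91% in the 9, against 15.9% of length. The other collagens held 22.3 ± 13.9% and 71.1 ± 6.01%, against 69.8% of length. The share of types 1, 3 and 5 was 80.8 and 86.1% in 45 min replicates 1 and 2, 83.1 and 72.9% in the 135 min libraries with those numbers, and 64.4, 43.9 and 69.3% in 405 min replicates 1, 3 and 4. All 3 of the 405 min values were below all 4 of the earlier ones. Without 405 min replicate 3 the mean over the remaining 6 libraries was 76.1 ± 8.54%. In control the share was 17.7, 30.4, 15.7 and 14% in replicates 1 to 4. All collagens together made up between 0.23 and 0.839% of a library's fragments in the 7, and between 0.195 and 0.277% in the 9.

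**Figure D2:**
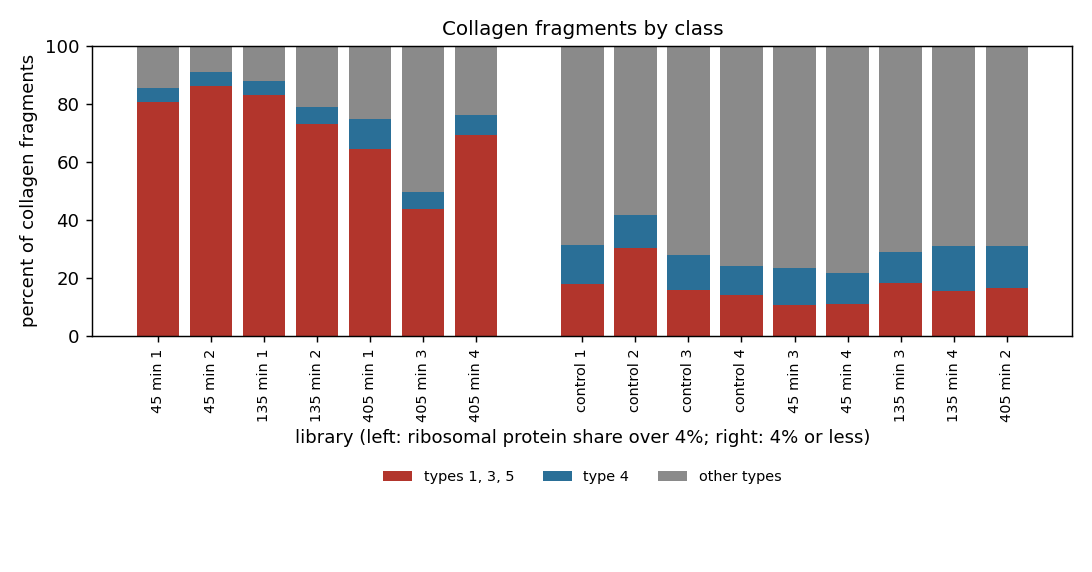
Percent of collagen fragments on genes of types 1, 3 and 5 (red), type 4 (blue) and all other types (grey) in each of the 16 libraries, with the 7 libraries over 4% ribosomal protein share on the left. The red part is 43.9% to 86.1% on the left and 10.5% to 30.4% on the right.

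Chains that assemble together were compared by the ratio of their levels per kilobase. Type I collagen contains more alpha 1 than alpha 2 chains, and the ratio of Col1a1 to Col1a2 was 0.562 to 1.33 in the 7 libraries, with a median of 1.01. The ratio of Col4a1 to Col4a2, whose protein products also combine with an excess of alpha 1, had a median of 2.27 but ranged from 0.348 to 11.7. Col6a1 exceeded Col6a2 in all 7 libraries, by 1.11 to 3.09 times. Col5a2 exceeded Col5a1 in all 7 as well, by 2.07 to 19.9 times. In the 9 libraries the median ratios were 0.82, 0.692, 0.786 and 1.23 in the same order, and each range there included 1.

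The course from 45 to 405 min could be read in the 7 libraries, 2 at 45 min, 2 at 135 min and 3 at 405 min. In bulk RNA, fewer cells that express a gene and less RNA per cell cannot be told apart. Among these 7, the fibril collagens Col1a2, Col3a1 and Col5a2 were lower in each 405 min library than in each 45 min library. The mean of Col1a2 was 2810 ± 355 CPM at 45 min (SD, n = 2), 1510 ± 269 CPM at 135 min (n = 2) and 820 ± 530 CPM at 405 min (n = 3). The mean of Col3a1 was 894 ± 292, 505 ± 171 and 207 ± 18.1 CPM at the same times, and that of Col5a2 was 757 ± 64.4, 764 ± 374 and 302 ± 70.2 CPM. Col1a1 had means of 1900 ± 431, 1520 ± 252 and 1080 ± 810 CPM, but 405 min replicate 1, with 1890 CPM, lay above 45 min replicate 2, with 1600 CPM. Of type 4, Col4a5 (141 to 37.4 CPM in the means) also had all 405 min libraries below both 45 min libraries. So had Col8a1 (221 to 80.9 CPM), Col11a1 (58.6 to 17.8 CPM) and Col16a1 (92.2 to 46.1 CPM) of the other types. Col11a1 encodes a fibril collagen chain best known from cartilage.

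Most fibroblast markers other than collagens also had a lower mean at 405 min. The list of 10 includes Col1a1, Col1a2 and Col3a1. Of the 10, 9 had a lower mean at 405 min than at 45 min in the 7 libraries. The exception was Fn1 (4320 and 5900 CPM). All 405 min libraries were below both 45 min libraries for 7, against 15.9% of the 8605 genes tested. These were Col1a2 and Col3a1 and, of the genes that are not collagens, Vim, S100a4, Pdgfra, Pdgfrb and Sparc. The mean of Vim, which encodes the intermediate filament protein vimentin, was 6650 CPM at 45 min and 2610 CPM at 405 min. That of S100a4, a calcium-binding protein gene, was 856 and 74.4 CPM, and that of Pdgfrb, a growth factor receptor gene, 249 and 27.6 CPM. The median log2 fold change of the list, collagens included, was -1.39, and none of it was called by edgeR (0% of all genes). At an unadjusted p under 0.05 in edgeR, 3 members were lower, Pdgfrb, S100a4 and Col3a1. Of all genes, 4.15% were lower and 3.01% higher at that threshold. DESeq2 called 2 lower, Pdgfrb and S100a4, beside 0.244% of all genes lower and 0.476% higher. All 18 markers of epithelial, endothelial, leukocyte and cartilage cells had a higher mean at 405 min, 5 of them with no overlap. Of the genes tested, 9.24% had all 405 min libraries above both 45 min libraries. That share does not cover the 18 markers, because none of them had a count in each of the 7 libraries. Their means at 45 min were at most 1.8 CPM, and the highest value at 405 min was 39.7 CPM, for Krt8 in replicate 3. Each of the 18 was highest in replicate 3 among the 405 min libraries of the 7, as was Krt5 with 1.12, 38.3 and 0 CPM in replicates 1, 3 and 4. Krt18, at 0.394 and 0 CPM in replicates 1 and 4, exceeded its 45 min mean of 1.72 CPM only in replicate 3. The part of these shifts in the collagen course was not tested.

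**Figure D3:**
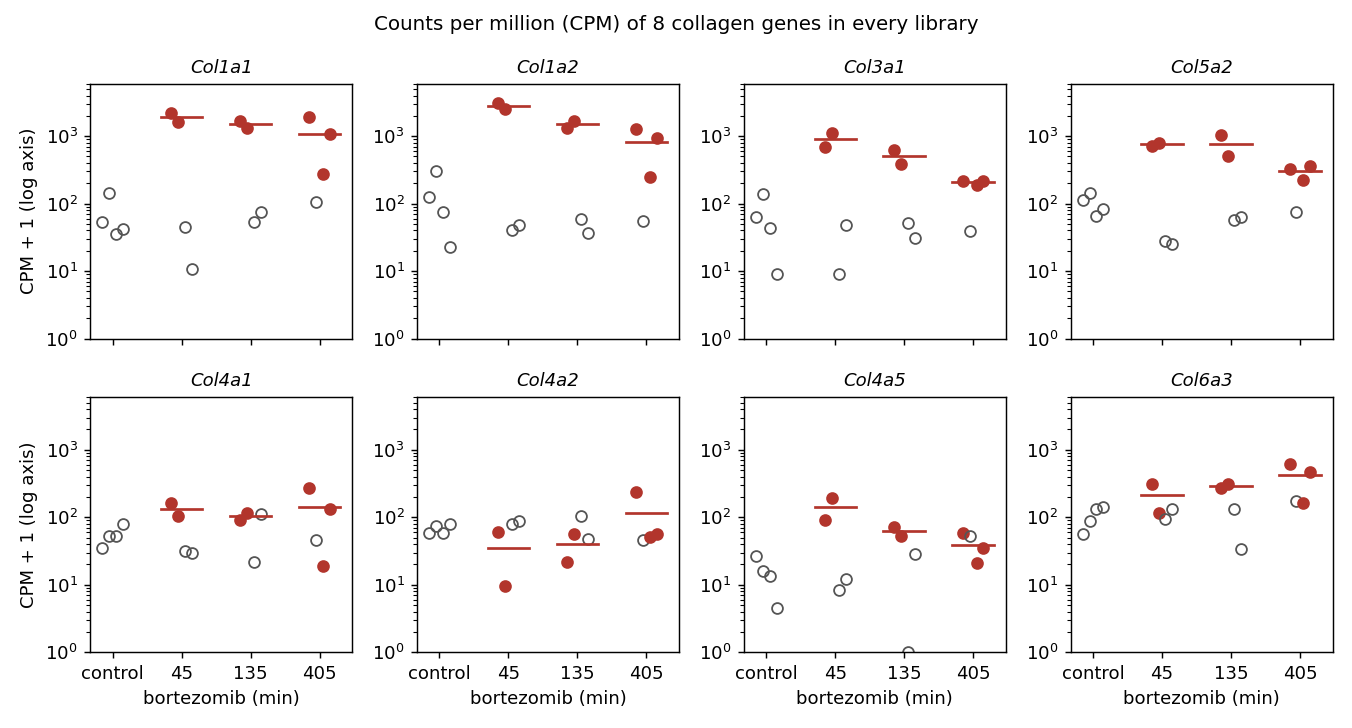
CPM + 1 on a log axis for 8 collagen genes in all 16 libraries by time; filled red points are the 7 libraries over 4% ribosomal protein share with their mean as a line, and open points are the other 9. For Col3a1 the red points run from 688 and 1100 CPM at 45 min to 186 to 219 CPM at 405 min, and no control library has a red point.

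Of the 44 collagens, 21 had at least 1 count in each of the 7 libraries and were tested, so that a collagen at 0 in any of them is not among these. Of these, 7 had all 405 min libraries below both 45 min libraries, against 15.9% of the 8605 genes tested. In the other direction 1 collagen, Col17a1, did so, against 9.24%. Col17a1 encodes a transmembrane collagen of epithelial adhesion complexes and had 0.164 to 0.816 CPM at 45 min and 1.91, 3.88 and 35.4 CPM at 405 min, with the highest value in 405 min replicate 3. The 7 genes that were lower were the same without 405 min replicate 3, when 25.9% of all genes met the criterion, and with TMM-scaled CPM, when 16.3% did. In the other direction Col6a3 joined Col17a1 in the first case, when 18.1% of all genes met the criterion. Col27a1 joined it in the second, when 9.08% did.

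No collagen passed the threshold between times. With edgeR's quasi-likelihood test at a Benjamini-Hochberg adjusted p under 0.05, the call was made for 0% of the 8605 genes in either direction at 405 min against 45 min, and so for 0 of 21 collagens. At an unadjusted p under 0.05, 4 collagens were lower, against 4.15% of all genes, and 2 were higher, against 3.01%. Col3a1 had a log2 fold change of -2.11 (SE 0.64, unadjusted p = 0.008, adjusted p = 0.69 in edgeR). Col4a5 (-1.92, SE 0.64), Col11a1 (-1.72, SE 0.6) and Col8a1 (-1.42, SE 0.56) were the other 3 on the lower side, and Col17a1 (4.59, SE 1.68) and Col27a1 (2.40, SE 1.07) were on the higher side, each with an adjusted p of 0.69 to 0.691 in edgeR. Col1a2 had -1.76 (SE 0.83), Col5a2 -1.30 (SE 0.68) and Col1a1 -0.80 (SE 0.86), and none of these had an unadjusted p under 0.05. Col5a1 (0.35, SE 0.64) and Col4a1 (0.06, SE 0.86) had estimates smaller than their standard error, while Col4a2 had 1.71 (SE 0.95) and Col6a3 1.0 (SE 0.76). The median log2 fold change was -1.30 over the 5 tested genes of types 1, 3 and 5, 0.06 over the 5 of type 4 and 0.53 over the 11 others, beside 0.14 over all 8605 genes. DESeq2 called 62 genes in this comparison and edgeR's exact test 17, with no collagen among them in either. The DESeq2 calls were 0.476% of genes on the higher and 0.244% on the lower side. Over all 16 libraries DESeq2 called 0.0596% of 5030 genes higher and 0.0398% lower at 405 min than at 45 min, again with no collagen.

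**Figure D4:**
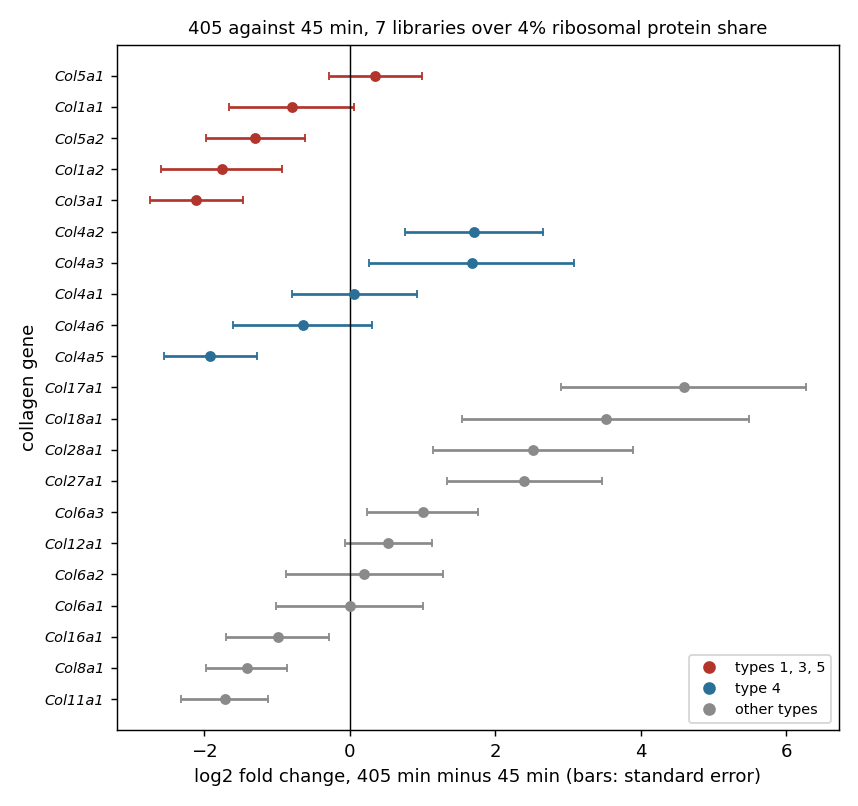
Log2 fold change of 405 min minus 45 min for the 21 tested collagen genes in the 7 libraries over 4% ribosomal protein share, with the standard error as bars, from edgeR's quasi-likelihood fit. Col3a1 (-2.11), Col4a5 (-1.92), Col1a2 (-1.76) and Col11a1 (-1.72) lie furthest to the left, and none passed the adjusted threshold.

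The 135 min libraries lay between for several of these genes. At 135 min against 45 min, Col1a2 had a log2 fold change of -1.01 (SE 0.92), Col3a1 -0.90 (SE 0.72) and Col5a2 -0.04 (SE 0.75). At 405 min against 135 min, the values were -0.75 (SE 0.82), -1.21 (SE 0.64) and -1.27 (SE 0.68). No collagen was called in either comparison by edgeR (0% of all genes), by DESeq2 (0.0349% of genes higher at 135 min than at 45 min, 0% otherwise) or by the exact test. At an unadjusted p under 0.05, Col17a1 was higher at 135 min than at 45 min, as were 1.28% of all genes (0.36% were lower). With the replicate number as a block, Col18a1 and Col4a3 were higher at that threshold as well, so that 3 collagens were. In that fit 243 of all 8605 genes were higher and 16 lower. The blocked fit leaves hardly any libraries to measure spread, because 405 min replicates 3 and 4 have no same-numbered library at 45 or 135 min. Without the block, Col11a1 was lower at 405 min than at 135 min, as were 1.86% of all genes (1.46% were higher).

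The comparison with control is what the study's design asks of each bortezomib time, and it was fitted to all 16 libraries. Only 15 of the 44 collagens had a count in every library and were tested. No collagen was called at 45, 135 or 405 min by edgeR's quasi-likelihood test, as was the case for all 5030 genes tested (0% in each direction). At an unadjusted p under 0.05, 4 collagens were higher at 45 min (12.1% of all genes), 1 at 135 min (7.83%) and 2 at 405 min (14.5%), and 0 were lower at any time (0.775%, 1.35% and 1.51% of all genes). The 4 at 45 min were Col1a1, Col1a2, Col3a1 and Col8a1, the gene at 135 min was Col1a1, and the 2 at 405 min were Col1a1 and Col6a3. For Col1a1 the log2 fold change was 4.28 at 45 min (SE 1.67, adjusted p = 0.381 in edgeR), 3.87 at 135 min (SE 1.64, adjusted p = 0.513) and 3.99 at 405 min (SE 1.65, adjusted p = 0.285). Col1a2 had 3.91 (SE 1.68), 2.86 (SE 1.61) and 2.65 (SE 1.59), Col3a1 3.38 (SE 1.4), 2.49 (SE 1.35) and 1.78 (SE 1.32), and Col5a2 2.44 (SE 1.24), 2.42 (SE 1.24) and 1.67 (SE 1.21). In each treated group, libraries over and under 4% ribosomal protein share stood side by side. DESeq2 called Col1a1, Col1a2 and Col3a1 at 45 min, Col1a1 at 135 min and Col1a1 and Col6a3 at 405 min, all higher, beside 6.56%, 3.44% and 8.03% of all genes. It left 3706, 4388 and 2828 of the 5030 adjusted p as NA at these times, and such genes could not be called. The shares are therefore lower than among the genes that could be called.

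Within the 9 libraries at or under 4%, where all 4 controls lie, most estimates for the fibril collagens were negative. Among these 9, 45 and 135 min are replicates 3 and 4 and 405 min is replicate 2 alone, so only effect sizes are given for 405 min. Col1a1 had a log2 fold change against control of -1.27 (SE 0.74) at 45 min, -0.20 (SE 0.70) at 135 min and 0.59 at 405 min. Col3a1 had -1.24 (SE 0.93), -0.77 (SE 0.90) and -0.72. None of the 26 collagens tested there was called at 45 or 135 min against control in edgeR, with adjusted p of 0.484 or more. Of all 8366 genes 0% were called at these times. At an unadjusted p under 0.05, 1 collagen was lower, Col5a2 at 45 min (-1.95, SE 0.55), beside 1.94% of all genes lower and 0.669% higher. At 135 min 4.4% of genes were higher and 5.92% lower at that threshold, with no collagen among them. With the log2 ribosomal protein share as a covariate over all 16 libraries, Col1a1 had -0.08 (SE 0.58), 0.28 (SE 0.56) and -0.23 (SE 0.62). No control library exceeded 4%, so a comparison with control among the 7 libraries could not be made. Against the 4 controls, 1 of the 15 tested collagens, Col6a3, had all 405 min libraries above and 1, Col27a1, had all below, beside 6.86% and 6.88% of all genes. At 45 and 135 min no collagen separated in this way (1.37% and 2.47% of all genes above, 2.8% and 4.06% below).

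The genes that modify, fold, process and bind collagen were present beside the collagens, and no member of these lists was called by edgeR in any comparison. DESeq2 made calls in these lists only against control and only on the higher side. It called 6.56%, 3.44% and 8.03% of all genes there at 45, 135 and 405 min, shares that count genes with an adjusted p of NA. Summed over the 3 times, the calls were 4 in the modification list, 4 in folding and export, 1 in processing and cross-linking and 7 in receptors and turnover. There were 9 in fibril partners and 1 in basement membrane partners. This comparison cannot be told apart from the difference in composition. Serpinh1 was at 253 and 676 CPM in the 45 min libraries among the 7, at 135 and 555 CPM at 135 min and at 286 to 1640 CPM at 405 min. Its ranges overlapped, and the log2 fold change at 405 min against 45 min was 1.39 (SE 0.97). Against control over all 16 libraries it was 5.44 at 405 min (SE 1.47, unadjusted p = 0.00158, adjusted p = 0.285 in edgeR). P4hb, the beta subunit of prolyl 4-hydroxylase, had 3.95 (SE 1.32) and P4ha1, a catalytic subunit, 2.38 (SE 0.84) in the same comparison. Between 45 and 405 min in the 7 libraries, P4ha2, another catalytic subunit (31.1 to 75.9 CPM in the means), had all 405 min libraries above both 45 min libraries. So had Plod2, the lysyl hydroxylase that acts on telopeptides (63.8 to 149 CPM), as had 9.24% of all genes tested. The log2 fold changes of P4ha2 and Plod2 were 1.29 (SE 0.67) and 1.23 (SE 0.65). Plod1 of the same list (7.51 to 32 CPM) also separated upward, but was at 0 in 45 min replicate 2 and was not tested. Crtap, a part of the prolyl 3-hydroxylase complex, went the other way, with means of 130 and 51.1 CPM and a log2 fold change of -1.31 (SE 0.57). For Crtap, Fkbp14 and P4ha3 all 405 min libraries were below both 45 min libraries, as for 15.9% of all genes tested. Of the 11 tested genes of this modification list, 2 had an unadjusted p under 0.05, Crtap and Fkbp14, and both were lower, beside 4.15% of all genes lower and 3.01% higher.

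Outside the cell, the lysyl oxidase gene Lox, which cross-links fibrils, had 891 and 1730 CPM at 45 min, 469 and 693 CPM at 135 min and 62.8 to 599 CPM at 405 min among the 7 libraries. All 405 min libraries were below both 45 min libraries, as for 15.9% of all genes tested (log2 fold change of Lox -1.84, SE 0.87). Sparc, a collagen-binding matricellular protein, was likewise at 756 and 928 CPM at 45 min and at 75.1 to 477 CPM at 405 min (-1.48, SE 0.77). Loxl2, a related oxidase, had the opposite sign, 2.03 (SE 1.02). Of the 9 tested fibril partners, 2 had an unadjusted p under 0.05 and both were lower (4.15% of all genes were lower and 3.01% higher), namely Dcn, which encodes the fibril-binding proteoglycan decorin (-2.44, SE 0.80), and Thbs1 (-1.67, SE 0.63). The median log2 fold change of this list was -0.60. Of the 8 tested basement membrane partners of type IV collagen, 0 had an unadjusted p under 0.05 and the median was 0.91. Nid1, which links laminin to type IV collagen, had 401 and 866 CPM at 45 min and 595 to 2120 CPM at 405 min (1.15, SE 0.80). Fn1, which encodes fibronectin, was at 1400 to 9580 CPM at 405 min and 2710 and 5940 CPM at 45 min (0.48, SE 1.0). The 9 procollagen processing and cross-linking genes had a median of 0.78, the 7 folding and export genes of -0.27 and the 13 receptor and turnover genes of 0.13, and none of these had an unadjusted p under 0.05.

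The genes most like Col1a1 across the 7 libraries were sought among the 7134 genes with at least 10 counts in each, by Pearson's r of log2(CPM + 1). The 5 highest were Myh10 (0.983), Tcf4 (0.974), Tubb6 (0.968), Mettl14 (0.964) and Anxa4 (0.964). Of the collagens, Col16a1 (0.956), Col1a2 (0.924) and Col4a1 (0.912) had the highest values, while Col3a1 had 0.578 and Col4a2 0.013. The order rests on 405 min replicate 3. Without it the values were 0.859 for Myh10, 0.601 for Mettl14, 0.769 for Col16a1, 0.635 for Col1a2 and 0.403 for Col4a1, and Col5a1, at 0.295 with it, had 0.643. The 7 points share depth and composition differences, and no test was made.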

How the data were processed

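RNA-seq libraries of NIH3T3 cells were compared, with groups taken from the sample titles. The authors deposited, per library, estimated counts (fragments assigned to each of 23356 genes, which were rounded here) and FPKM values, which served only as an alternative. Reads were mapped to mm9 and analysed against RefSeq on DNAnexus according to the study's methods, while the submitters' processing notes name mm10. The aligner and versions are not given in the sources used here. Totals per library were 570323 to 19930375 fragments, so single counts weigh most in the shallow libraries. In 1 table, 27 symbols turned into dates were restored by row order.

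Groups were compared by quasi-likelihood F tests in edgeR 4.0.16 (R 4.3.3) with TMM factors, on genes with at least 1 count in every library, 1 mean per group, over all 16 libraries (5030 genes) or the 7 with a ribosomal protein share over 4% (8605 genes), called at an adjusted p under 0.05. CPM and levels were computed without TMM. Lengths came from GENCODE M1 (NCBIM37), for 86.7% of genes and all 44 collagens, with Col26a1 found under an older symbol. The fits were tested on simulated counts with less spread between libraries than these data. In edgeR the common dispersion, a measure of that spread, was 0.625 over all 16 libraries and 0.466 over the 7. The simulation therefore does not show what the fits can find here. Replicate numbers in the titles were checked by correlating deviations from group means: between 45 and 135 min all 4 same-numbered pairs had r of 0.513 to 0.557, and in both groups replicates 1 and 2 were the libraries over 4%. No other 2 groups had every pair over 0.1. The members and gene lists, which name all genes of types 1, 3, 4 and 5, the other collagens among the 10 highest and a panel of pathway genes, were chosen with earlier results of these data known. Alternatives were RLE factors, filterByExpr, no filter, edgeR's exact test, DESeq2 1.42.0, fits limited to 2 groups, a replicate block, the ribosomal protein share as covariate or at 6%, the 9 remaining libraries, and leaving out each library.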

Additional observations from a re-analysis of the deposited data

Results flagged for a closer look

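Of 68 groups of 4 libraries, for 17 collagen genes on the log2(CPM + 1) scale, 7 held a library far from the other 3 by Dixon's criterion. Chance gives such a library in about 1 group of 20, which would be 3.4 here. In 405 min, Col3a1 was at 5.27 in replicate 2, against 7.55 to 7.78 in the others, and Col4a2 was at 7.89 in replicate 1, against 5.54 to 5.84. Col4a2 was at 3.27 in 45 min replicate 2, against 5.94 to 6.45. In 135 min, Col4a1 was at 4.46 in replicate 3, from 12 counts, and Col16a1 at 0 in replicate 4, from 0 counts. In control, Col5a1 was at 5.46 in replicate 1 (38 counts) and Col6a2 at 3.9 in replicate 2 (12 counts). Replicate 2 was the only 405 min library at or under 4% ribosomal protein share.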

How the results depend on the processing

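The count of collagen genes called was 0 in every comparison under every edgeR alternative, the 16 and 7 fits without 1 library included, and the lowest adjusted p of a collagen in edgeR was 0.0518 (Col1a1 at 405 min with only the 2 groups compared). DESeq2 called 3, 1 and 2 collagens higher than control at 45, 135 and 405 min, with Col1a1 at 4.21, 3.93 and 3.87, Col1a2 and Col3a1 at 3.85 and 3.35 at 45 min, and Col6a3 at 2.01 at 405 min. Over all genes it called 330, 173 and 404 against control, 5 at 405 against 45 min, and in the 7 libraries 3 at 135 and 62 at 405 against 45 min, while it left 3706, 4388 and 2828 adjusted p as NA against control. The exact test called 12 genes at 405 min against control, 1 at 405 against 45 min and 17 in the 7 libraries. filterByExpr gave 1, 1 and 2 genes at 405 min against control, 135 and 45 min, and 4 and 6 in the 7 libraries against 135 and 45 min. No filter gave 1, 2 and 2, and in the 7 libraries 3 at 135 against 45 min, 8 at 405 against 135 min and 16 at 405 against 45 min. Of the pathway lists, DESeq2 called 4 modification, 4 folding, 1 processing, 7 turnover, 9 fibril and 1 basement membrane results, all higher than control, where it called 6.56%, 3.44% and 8.03% of all genes. The direction against control turned for several collagens under the next settings, and the cause was not tested. With the ribosomal protein share as covariate (2 genes called at 405 against 45 min), log2 fold changes were -0.08, -0.47, -0.13, -1.07 and -0.02 at 45 min for Col1a1, Col1a2, Col3a1, Col5a2 and Col6a3, -0.94, -0.35, -0.56 and -0.15 at 135 min for the last 4, and -0.23, -1.80, -1.45 and -1.56 at 405 min for the first 4. Among the 9 libraries they were -1.27, -1.61, -1.24 and -1.95 at 45 min for the first 4, and -0.20, -1.62, -0.77, -0.86 and -0.52 at 135 min for all 5. At 405 min, where replicate 2 is the only library of the 9, they were -1.27, -0.72 and -0.43 for Col1a2, Col3a1 and Col5a2. Collagens with all 405 min libraries above those at 45 min numbered 1, and 2 without 405 min replicate 3 or with TMM-scaled CPM, both chosen after seeing the data. Of all 8605 genes, 9.24%, 18.1% and 9.08% met the criterion in these 3 settings. Class shares per kilobase moved by less than 1 SD. Same-numbered libraries deviated together between 45 and 135 min but not in every pair of any other 2 groups (r -0.761 to 0.611 over all 24 pairs). The replicate block called 0 collagens and left Col1a1 at 2.66, 2.39 and 4.17 against control. With it, collagens at an unadjusted p under 0.05 went from 4 to 0 higher and from 0 to 1 lower (Col27a1) at 45 min against control. They went from 1 to 0 higher at 135 min and from 2 to 4 higher at 405 min. Of all 5030 genes in the blocked fit, 165, 141 and 786 were higher than control at these times and 93, 76 and 74 lower. In the 7 libraries, 405 min replicates 3 and 4 have no same-numbered library at 45 or 135 min. With the block, 405 against 45 min there rests on 405 min replicate 1 alone, so only an effect size is given. The median log2 fold change over the 21 tested collagens was 0.58 with the block and 0.06 without it. The shallow libraries (570323 fragments at the fewest) limit what can be seen of the weaker collagens.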
